A study of Mus musculus with 20 samples.

Results

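The subject here is the genotype difference in the injury response of mouse dorsal root ganglia: for each mouse, the log2 expression on the side of a sciatic nerve transection minus that on the other side, compared between Ahr conditional knockout (cKO) and control animals. All 20 libraries of the series entered it, as 10 mice with 1 contralateral and 1 ipsilateral library each, 5 mice per genotype. Knockout mice were Ahr fl/fl and carried Thy1CRE-ERT2/EYFP, a tamoxifen-inducible Cre recombinase and a yellow fluorescent protein driven by the promoter of Thy1. Control mice were Ahr f/f or f/+, and no Cre is named for them; their titles say Wildtype and their genotype field FF, and the protocol's floxed genotype was followed. All mice were male and received tamoxifen at 100 mg/kg for 5 days at 17 weeks of age, the controls included. The sciatic nerve was cut 4 weeks later, and ganglia of lumbar levels 4 to 6 were collected 1 day after the cut, between ZT2 and ZT4 (hours after lights on). A spinal cord injury stands in 1 label field instead, and the protocol text was followed. In 1 title the mouse number H61 is shortened, and its library name was used.

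Dorsal root ganglia hold the cell bodies of sensory neurons, wrapped by satellite glia, with Schwann cells, macrophages, fibroblasts and vessels around them. Cutting the peripheral axon switches these neurons to a growth programme, in which transcription factors such as ATF3, JUN and SOX11 rise and growth-associated proteins, neuropeptides and cytokine genes follow, while many ion channels of the resting neuron fall. AhR is a ligand-activated transcription factor that pairs with ARNT and binds response elements with the core GCGTG in genes of xenobiotic metabolism such as Cyp1b1 and Tiparp. In whole ganglia, fewer cells of a type and less RNA per cell cannot be told apart.

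Libraries held 76150333 to 118537209 exonic counts, with mitochondrial genes at 0.916 to 1.33%. Values below are counts scaled to the library total (CPM) after TMM normalisation, and log2 differences with their standard error (SE) come from edgeR with each mouse as a block. All 16 neuron markers were detected in the tested set. The list levels of 3 contralateral cKO libraries stood apart: in H64, H95 and H100 the mean log2 CPM of 24 matrix and tendon genes was 5.80, 5.82 and 5.45, against 4.04 to 4.89 in the 5 control and the other 2 cKO contralateral libraries. The same 3 had the highest mitochondrial shares, 1.31, 1.30 and 1.33%, against 0.916 to 1.20% in the other libraries; the part of this in the results was not tested. These 3 libraries enter every difference of injury responses over all 10 mice.

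The deleted gene was read first. Ahr (ENSMUSG00000019256.18) had 21.3, 24.6, 23.8, 27.2 and 24.4 CPM in the control contralateral libraries of H62, H63, H65, H96 and H97, and 20.4, 21.0, 20.5, 20.4 and 19.5 CPM in those of the cKO mice H61, H64, H95, H99 and H100. On the ipsilateral side the values were 34.1, 35.5, 30.2, 38.1 and 34.1 CPM in control and 31.5, 36.8, 31.5, 30.9 and 28.9 CPM in cKO libraries. All 5 cKO libraries lay below all 5 control libraries on the contralateral side, and the ranges overlapped on the ipsilateral side. A whole-gene count does not separate the floxed part from the rest, so it is no direct reading of the deletion. Ahr rose after injury in both genotypes, by 0.50 in control (SE 0.05) and 0.64 in cKO (SE 0.05), and the difference of these responses was 0.14 (95% interval -0.0016 to 0.28, edgeR p 0.0523, adjusted 0.442). That difference was 0.09 without H65 and 0.07 with a fibroblast marker covariate described further on.

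Of 28564 tested genes, 0 had an injury response that differed between the genotypes at an adjusted p under 0.05 (0%, edgeR; smallest adjusted p 0.353). In control mice 4030 genes rose (14.1%) and 4529 fell (15.9%) after injury, and in cKO mice 4684 rose (16.4%) and 4331 fell (15.2%). For the difference itself, 1712 genes were at an unadjusted p under 0.05 with a greater response in cKO (5.99%) and 1548 with a smaller one (5.42%). Per-mouse responses of the genotypes did not overlap in 271 genes with cKO above (0.949%) and in 157 with cKO below (0.55%). Greater means here more positive: a stronger rise or a weaker fall in cKO.

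Other tools and settings gave other counts. DESeq2 with the same mouse block called 125 genes, 46 greater and 79 smaller in cKO. Without mouse H99 edgeR called 123 genes, 52 greater and 71 smaller, of which 57 were among the DESeq2 calls (46.3% of the 123 and 45.6% of the 125). Both limma fits called 0 genes, with 3282 and 3348 at an unadjusted p under 0.05. On simulated counts with 200 changed genes, 39 of 207 DESeq2 calls and 14 of 171 edgeR calls were false. These counts were drawn with dispersions that edgeR estimated.

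Many single genes moved with a covariate, the mean log2 CPM of 12 fibroblast markers in each library. It was fitted beside the mouse block and is called the fibroblast covariate below. Its own injury response averaged 0.21 in control and -0.27 in cKO mice. Genes that vary with these markers can therefore lose part of their difference by construction. Of 159 genes followed by name, the difference became over 1.5 times smaller or changed sign in 106 with this covariate, and in 52 in at least 1 of the fits that leave out 1 mouse.

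How large a difference could still be present is given by the 95% intervals. The interval lay within a 1.5-fold difference either way for 62.6% of genes and within 2-fold for 77.8%. Among 716 genes that rose at least 2-fold on average over both genotypes, 30.0% were bounded within 1.5-fold and 47.8% within 2-fold. In that set 432 genes (60.3%) had the greater response in cKO, with a median difference of 0.06, against 53.2% and 0.01 over all genes tested. Among 79 genes that fell at least 2-fold, 10.1% were bounded within 1.5-fold and 19.0% within 2-fold, and 32 had the more positive response in cKO. For many strongly regulated genes even a difference over 2-fold was thus not bounded out with 5 mice per genotype.

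The size of the whole response was summarised as 1 slope per mouse, the response of its 795 strongly regulated genes on their mean response in the other mice, so that 1 is an average response. The slopes were 0.923, 1.02, 1.01, 0.964 and 0.972 in the control mice H62, H63, H65, H96 and H97. In the cKO mice H61, H64, H95, H99 and H100 they were 1.00, 1.12, 0.997, 0.951 and 0.929. The ranges overlapped, with H64 above all other mice. Mean slopes were 0.977 ± 0.0376 in control and 1.00 ± 0.0739 in cKO (SD, n = 5), a difference of 0.0237 (95% interval -0.0535 to 0.115, two-sided exact permutation p 0.611, adjusted over 5 measures 0.784). Without H64 the difference was -0.00419. It was 0.0796 among mice numbered H61 to H65 and -0.00871 among those numbered H95 to H100.

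The slope over genes that rose, the slope over genes that fell and the spread of the response over all genes differed by 0.0236, 0.0258 and 0.0143, with adjusted exact permutation p of 0.784, 0.802 and 0.615. The fifth measure was sequencing output: the log2 ratio of ipsilateral to contralateral total counts was above 0 in all 5 cKO mice (0.0974 to 0.638) and below 0 in 4 of 5 control mice (-0.430 to 0.327). Its difference was 0.429 (exact permutation p 0.0317, adjusted 0.159; the smallest p that 5 against 5 can give is 0.00794). Thinning all libraries to equal totals left 0 called genes, with 1567 greater and 1579 smaller at an unadjusted p under 0.05.

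**Figure D1:**
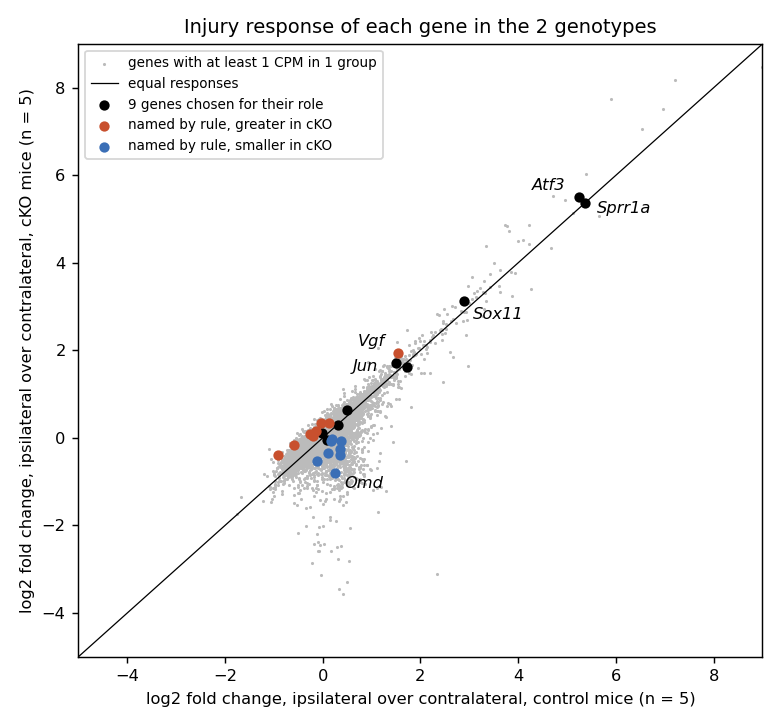
Log2 fold change after injury in control mice (x axis) and cKO mice (y axis), 1 point per gene with at least 1 CPM in 1 group; 3 genes lie outside the axes. Strongly induced genes such as Atf3 and Sprr1a lie along the line of equal responses, and the 16 genes named by rule, 8 in each direction, include 1 strongly induced gene, Vgf; Bmp15 fell by 0.92 in control and Omd by 0.81 in cKO mice.

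The transcription factors that open the injury programme responded in both genotypes. Of 20 listed, 19 rose in control and 19 in cKO mice (the same 19), against 14.1% and 16.4% of all genes. The median response was 0.79 and 0.81, and the median difference was -0.00095, against 0.01 over all genes. At an unadjusted p under 0.05, 3 had the greater and 2 the smaller response in cKO (background 5.99% and 5.42%). The count of 3 was 1 without H64 or H95 and with the fibroblast covariate, and 6 without H99.

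Jun, the AP-1 subunit induced by axotomy, was the 1 factor whose per-mouse responses did not overlap (cKO above, as in 0.949% of all genes). It had 108, 106, 98.4, 103 and 99.4 CPM in control contralateral libraries and 90.0, 85.7, 85.8, 94.5 and 90.2 CPM in cKO contralateral libraries, in the mouse order used above. Ipsilateral values were 296, 301, 283, 296 and 285 CPM in control and 290, 309, 298, 285 and 272 CPM in cKO. The contralateral ranges did not overlap, with cKO lower, while the ipsilateral ranges did. Jun rose by 1.51 (SE 0.04) in control and by 1.70 (SE 0.04) in cKO mice, a difference of 0.20 (SE 0.05, edgeR p 0.0025, adjusted 0.353), which was 0.11 with the fibroblast covariate.

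Atf3, a stress-induced bZIP factor scarce in intact neurons, had 13.8, 11.6, 9.27, 12.2 and 9.92 CPM in control contralateral and 8.46, 9.84, 9.51, 8.67 and 9.71 CPM in cKO contralateral libraries. After injury it reached 405 to 438 CPM in control and 370 to 462 CPM in cKO libraries. The ranges overlapped on both sides. Its rises of 5.24 and 5.49 differed by 0.25 (95% interval 0.03 to 0.48, edgeR p 0.0307, adjusted 0.403).

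Sox11, a neuronal SOX factor of axon growth, rose by 2.90 and 3.12, a difference of 0.22 (SE 0.11, adjusted p 0.465). Stat3, the signal transducer of gp130 cytokines, rose by 0.28 in control mice and 0.46 in cKO mice (difference 0.18, edgeR p 0.0200, adjusted 0.376). Fosl2, another AP-1 subunit, rose by 1.44 and 1.22 (difference -0.22, adjusted p 0.353). Klf4, a factor that restrains axon growth in neurons and is also abundant in fibroblasts and vessels, had responses of 0.45 and -0.61, neither called (difference -1.06, SE 0.33, adjusted p 0.353). With the fibroblast covariate the differences of Sox11, Stat3 and Klf4 were 0.03, 0.03 and -0.41, and that of Sox11 was 0.11 without H64.

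The 27 regeneration effectors are secreted, cytoskeletal and membrane proteins of the growth state. Of these, 22 rose in control and 21 in cKO mice (14.1% and 16.4% over all genes), all 21 in common. The median difference was 0.06, with 4 members greater and 2 smaller at an unadjusted p under 0.05 (background 5.99% and 5.42%). With 1 mouse left out these counts ran from 2 (H62 or H97) to 6 (H65) and from 1 to 4 (H99), and they were 1 and 1 with the fibroblast covariate. Sprr1a, a small proline-rich protein of regrowing axons, rose by 5.36 in control mice and 5.38 in cKO mice. Its difference of 0.015 had the interval -1.10 to 1.13, with 0.233 to 1.01 CPM in contralateral libraries. Gap43, the growth cone phosphoprotein, rose by 0.32 and 0.29 (difference -0.02, 95% interval -0.15 to 0.10).

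Plaur, the urokinase receptor, rose by 2.65 in control mice and 3.02 in cKO mice (difference 0.37, SE 0.11, adjusted p 0.353). Bdnf, a neurotrophin made by injured sensory neurons, rose by 1.11 and 1.30 (difference 0.20, SE 0.06, adjusted p 0.353). Nts, the neurotensin precursor, rose by 0.70 and 1.00 (difference 0.30, adjusted p 0.406). For these 3 genes the ipsilateral means of the genotypes differed by 0.01, -0.03 and -0.09, and the contralateral means by -0.37, -0.23 and -0.39. Inhba, the activin A subunit, rose by 1.82 in control mice, had 0.71 in cKO mice (not called), and differed by -1.11 (SE 0.35, adjusted p 0.353).

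The 20 genes of cytokine, JAK-STAT and SOCS signalling had a median difference of 0.08, with 6 greater in cKO and 0 smaller at an unadjusted p under 0.05 (background 5.99% and 5.42%). That count was 2 without H64 or H100 and with the fibroblast covariate, and 3 without H95 or H96. Il6, the gp130 cytokine, rose by 3.34 in control mice and 4.39 in cKO mice, a difference of 1.05 (SE 0.42, adjusted p 0.399) at contralateral means of 0.217 and 0.121 CPM. Receptors of related cytokines had small responses: Osmr 0.10 in control (not called) and 0.42 in cKO (rose), and Lifr -0.17 and 0.12, neither called. Their differences were 0.32 and 0.28 (adjusted p 0.389 and 0.360), and 0.09 and 0.08 with the fibroblast covariate. Stat2 rose by 0.32 and 0.52 (difference 0.21, adjusted p 0.353). Socs3, the feedback inhibitor of this pathway, rose by 1.68 and 1.87 (difference 0.19, SE 0.19, adjusted p 0.734).

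Neuropeptides and granins, 18 genes, had a median difference of 0.02, with 5 greater and 1 smaller at an unadjusted p under 0.05 (background 5.99% and 5.42%). The count of 5 was 2 without H95 or H97 and with the fibroblast covariate, 3 without H63, H64 or H100, and the count of 1 was 3 without H99. Gal, the galanin precursor, rose by 1.73 and 1.62 (difference -0.11, 95% interval -0.66 to 0.44). Nppb, an itch peptide, rose by 0.29 and 0.65 (difference 0.37, SE 0.11, adjusted p 0.353). Chgb, a granin of secretory granules, fell by 0.19 in control mice and had -0.01 in cKO mice (difference 0.18, adjusted p 0.365; 0.07 with the fibroblast covariate). Calca, which encodes CGRP, had 0.03 in control and fell by 0.14 in cKO mice (difference -0.17, adjusted p 0.360).

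Vgf, a secreted neuropeptide precursor, had the lowest p of this list. Contralateral libraries held 161, 139, 160, 135 and 133 CPM in control and 116, 111, 114, 112 and 104 CPM in cKO mice. Ipsilateral libraries held 405, 427, 428, 441 and 407 CPM in control and 428, 460, 426, 381 and 440 CPM in cKO mice. The genotypes did not overlap on the contralateral side, with cKO lower, and overlapped on the ipsilateral side. Vgf rose by 1.54 (SE 0.06) in control and 1.94 (SE 0.06) in cKO mice, a difference of 0.40 (SE 0.08, 95% interval 0.23 to 0.57, edgeR p 0.000241, adjusted 0.353), and all 5 cKO responses (1.77 to 2.08) lay above all 5 control responses (1.33 to 1.71).

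**Figure D2:**
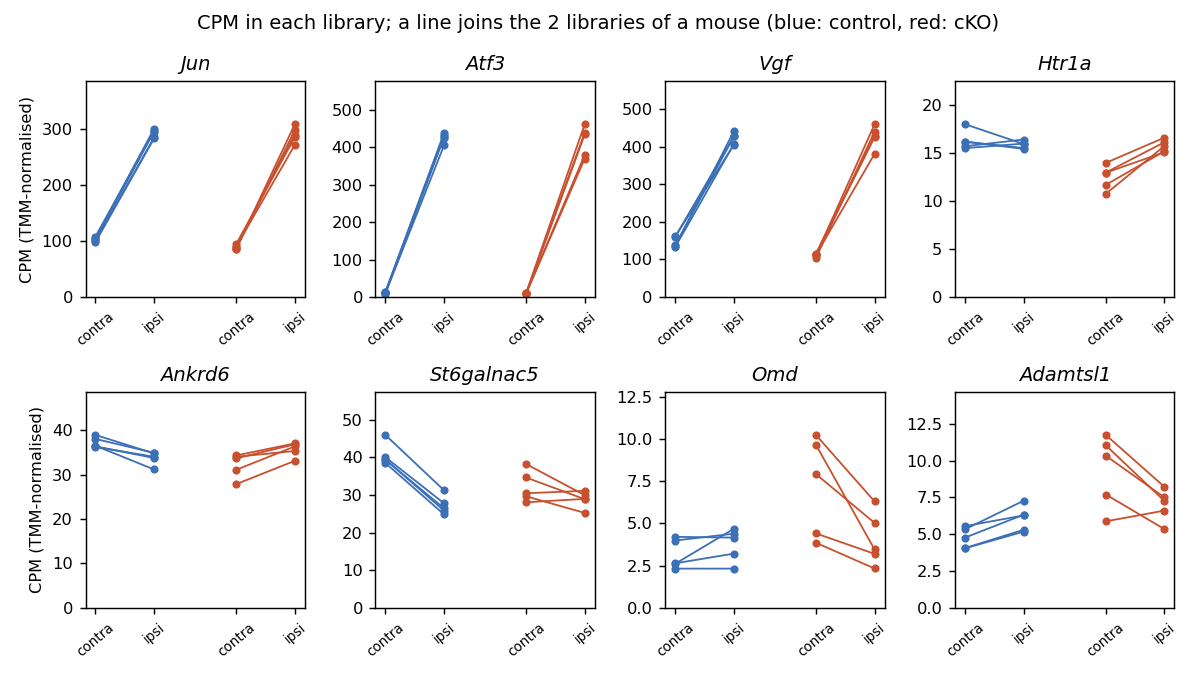
TMM-normalised CPM (y axes, from 0) of 8 genes in every contralateral (contra) and ipsilateral (ipsi) library; a line joins both libraries of a mouse, blue for control and red for cKO. For Jun, Vgf, Htr1a and Ankrd6 the cKO contralateral points lie below the control ones while the ipsilateral points overlap, and Adamtsl1 shows the opposite order on the contralateral side.

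Ion channels of sensory neurons leaned one way. Of 24 members, 23 had the more positive response in cKO (53.2% over all genes). At an unadjusted p under 0.05, 10 were greater (background 5.99%) and 0 smaller. The median difference was 0.15 against 0.01 over all genes. This list was chosen with earlier results of these data known, so its counts are a description. In control mice 10 channels fell and 2 rose after injury (15.9% and 14.1% over all genes). In cKO mice 6 fell and 7 rose (15.2% and 16.4%). The median channel response was -0.19 in control and 0.02 in cKO. On the contralateral side the median genotype difference was -0.12, and on the ipsilateral side 0.02.

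Trpa1, the irritant receptor channel, had responses of -0.07, 0.05, -0.03, -0.06 and -0.02 in control mice and 0.11, 0.27, 0.21, 0.13 and 0.40 in cKO mice. The ranges did not overlap, with cKO above, as in 0.949% of all genes. Trpa1 rose in cKO mice (0.23) and had -0.03 in control mice (difference 0.25, SE 0.05, edgeR p 0.000441, adjusted 0.353). Kcnk18, the TRESK potassium channel, fell by 0.73 in control and by 0.52 in cKO mice (difference 0.20, adjusted p 0.360). Kcna4, a potassium channel of the A type, fell by 0.48 and 0.27 (difference 0.21, adjusted p 0.353), and its per-mouse responses did not overlap either.

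Cacna1h, a T-type calcium channel, fell by 0.32 in control mice and had -0.03 in cKO mice (difference 0.29, SE 0.09, adjusted p 0.353). Scn9a, the sodium channel Nav1.7, fell by 0.29 in control mice and had -0.08 in cKO mice (difference 0.22, SE 0.09, adjusted p 0.415). Its cKO responses were spread from -0.30 in H61 to 0.25 in H64, and overlapped the control range of -0.45 to -0.18. By mouse, the mean channel response lay between -0.25 and -0.02 in control mice and between -0.13 and 0.23 in cKO mice. Without H97, H64 or H95 the count of 10 became 5, and it was 6 without H100 and 13 without H99. With the fibroblast covariate it was 1, the median difference was 0.0011, and Kcna4, Cacna1h and Scn9a differed by 0.12, 0.12 and 0.00060.

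Receptors of the neurotrophin and GDNF families (13 genes) had a median difference of 0.05, with 3 greater and 0 smaller at an unadjusted p under 0.05 (background 5.99% and 5.42%). The count of 3 was 1 with RLE size factors, after thinning and without H63, H64, H65, H95, H96 or H97, and 0 with the fibroblast covariate. Gfra2, the neurturin co-receptor, fell by 0.59 in control and by 0.28 in cKO mice (difference 0.31, SE 0.09, adjusted p 0.353; 0.16 with that covariate). Ret, the shared signalling receptor, rose by 0.18 and 0.37, and Gfra1, the GDNF co-receptor, rose by 1.08 and 1.23, with differences of 0.19 and 0.15 (both adjusted p 0.437; -0.02 and -0.02 with that covariate). Over 16 neuron markers the median difference was -0.02, with 3 greater and 2 smaller at an unadjusted p under 0.05 (background 5.99% and 5.42%). Their mean response was -0.05 in both genotypes. With 1 mouse left out, 1 to 5 were greater and 0 to 7 smaller (7 without H97); with the fibroblast covariate 0 were greater and 2 smaller. Syt1 had -0.22 in control (fell) and 0.05 in cKO (difference 0.27), Rbfox3 and Pou4f1 differed by 0.12 and 0.11, and Uchl1 by -0.19. With that covariate Syt1, Rbfox3 and Pou4f1 differed by 0.07, 0.04 and 0.05.

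Cholesterol and fatty acid synthesis genes also leaned one way. Of 21 members, 19 had the greater response in cKO (53.2% over all genes), 6 of them at an unadjusted p under 0.05 (background 5.99%) and 0 the other way, with a median difference of 0.08. The count was 3 without H63, H64, H95 or H100, and with the fibroblast covariate it was 3 and the median 0.025. Without the mouse block it was 2, and it was 9 without H99. In control mice 7 rose and 2 fell (14.1% and 15.9% over all genes). In cKO mice 11 rose and 1 fell (16.4% and 15.2%). Dhcr7, the last enzyme of cholesterol synthesis, fell by 0.17 in control mice and had 0.0044 in cKO mice (difference 0.18, adjusted p 0.353). Elovl6, a fatty acid elongase, fell by 0.29 in control and by 0.13 in cKO mice (difference 0.16, adjusted p 0.353; 0.07 with that covariate).

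Genes of extracellular matrix and tendon leaned in the other direction. Of 24 members, 22 had the more negative response in cKO, while 53.2% of all genes had the more positive one. At an unadjusted p under 0.05, 16 were smaller (background 5.42%) and 0 greater, with a median difference of -0.91. This list too was chosen with earlier results of these data known, so its counts are a description. The median response was 0.35 in control mice, where 3 rose and 2 fell (14.1% and 15.9% over all genes). It was -0.56 in cKO mice, where 1 rose and 6 fell (16.4% and 15.2%). On the contralateral side the median genotype difference was 0.84, higher in cKO, and on the ipsilateral side 0.02.

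Lox, the collagen cross-linking oxidase, had responses of 0.14, -0.17, 0.26, 0.43 and 0.40 in control mice and -0.55, -0.82, -0.66, 0.06 and -0.41 in cKO mice. H99 was the 1 cKO mouse within the control range. Lox fell by 0.48 in cKO mice and had 0.21 in control mice (difference -0.69, SE 0.17, edgeR p 0.00234, adjusted 0.353). Col12a1, a fibril-associated collagen, had 0.61 and -0.56, neither called (difference -1.17, SE 0.29, adjusted p 0.353). Dpt, the dermal matrix protein dermatopontin, had 0.36 in control and fell by 1.10 in cKO mice (difference -1.46, SE 0.44, adjusted p 0.353). Tnmd, the tendon marker tenomodulin, differed by -1.70 (SE 0.55, adjusted p 0.353) at means of 0.282 to 1.02 CPM.

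Col1a1, the main fibrillar collagen, had 171 CPM on average in control contralateral and 325 CPM in cKO contralateral libraries, and 231 and 183 CPM on the ipsilateral side. Its responses lay between -1.04 and 1.95 in control mice, between -1.47 and -0.01 in cKO mice, and the difference of -1.21 had an SE of 0.56 (adjusted p 0.460). Leaving out 1 mouse at a time, the count of 16 matrix genes ranged down to 9 without H95 and up to 19 without H99. With the fibroblast covariate 2 matrix genes were smaller and 2 greater, and the median difference was -0.26. Lox, Col12a1, Dpt, Tnmd and Col1a1 then differed by -0.38, -0.58, -0.82, -0.60 and -0.42.

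BMP, TGF-beta and Smad genes followed the same direction: 21 of 23 had the more negative response in cKO (53.2% of all genes had the more positive one). At an unadjusted p under 0.05, 9 were smaller (background 5.42%) and 0 greater, with a median difference of -0.22. This list was chosen in the same way, so its counts are a description. The count of 9 was 1 and the median -0.09 with the fibroblast covariate. Smad6, the inhibitory Smad of BMP signalling, fell by 0.36 in control and by 1.02 in cKO mice (difference -0.65, SE 0.17, edgeR p 0.00223, adjusted 0.353). Its per-mouse responses lay between -0.59 and -0.03 in control mice, between -1.59 and -0.58 in cKO mice, and just overlapped. Smad5, a BMP signal transducer, rose by 0.31 in control mice and had 0.11 in cKO mice (difference -0.21). The receptors Tgfbr2 and Tgfbr1 rose by 0.39 and 0.20 in control mice and had -0.02 and 0.04 in cKO mice (differences -0.41 and -0.17). All 4 had an adjusted p of 0.353. Smad5 and Tgfbr2 differed by -0.12 and -0.14 with that covariate.

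Markers of connective tissue moved with these lists. All 12 fibroblast markers had the more negative response in cKO, with a median difference of -0.32, while 53.2% of all genes had the more positive one. At an unadjusted p under 0.05, 5 were smaller (background 5.42%), and 2 without H95 or H97. Their mean response was 0.21 ± 0.26 (SD, n = 5) for control and -0.27 ± 0.40 for cKO mice. Their summed level was 934 to 1206 CPM in control contralateral and 995 to 1871 CPM in cKO contralateral libraries, and 932 to 1272 and 1020 to 1467 CPM on the ipsilateral side. Pdgfra, a fibroblast receptor, differed by -0.53, Serpinf1 by -0.19, and the adventitial markers Pi16 and Clec3b by -1.34 each (adjusted p 0.360 to 0.393). With these markers as the covariate 1057 genes were at an unadjusted p under 0.05 instead of 3260.

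Endothelial and mural markers (11 genes) had a median difference of -0.21, with 3 smaller and 0 greater at an unadjusted p under 0.05 (background 5.42% and 5.99%). Cdh5, the endothelial cadherin, differed by -0.50 (edgeR adjusted p 0.360). The count of 3 was 6 without H100, and 0 without the mouse block or with the fibroblast covariate, where the median was 0.03. Pdgfrb, of pericytes, differed by -0.21 and Flt1, a VEGF receptor, by -0.33; with the fibroblast covariate Cdh5, Pdgfrb and Flt1 differed by -0.23, -0.08 and -0.15. Satellite glia markers (7 genes) were all more negative in cKO (53.2% of all genes were more positive), with a median of -0.14. Of them 3 were at an unadjusted p under 0.05 (background 5.42%), 1 without H62 or H96, and 0 with the fibroblast covariate. Fabp7, Apoe and Glul differed by -0.23, -0.23 and -0.16, and Fabp7 by -0.12 with that covariate. Schwann cell markers (10 genes) had a median of -0.07 (0.04 without H96) and 0 members at an unadjusted p under 0.05.

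Blood and muscle markers varied widely between mice. Macrophage (14 genes), neutrophil (9), erythroid (6) and muscle (10) markers were all more negative in cKO, while 53.2% of all genes were more positive. Their medians were -0.32, -0.63, -0.48 and -2.48, yet 0 of these markers were at an unadjusted p under 0.05. The medians were 0.36, 0.49, 0.20 and -0.03 with the fibroblast covariate. In other settings up to 3 macrophage (without H65), 1 neutrophil (without H62), 4 erythroid (side effect by mouse number range) and 6 muscle markers (DESeq2, and without H99) were smaller at that p. Muscle markers summed to 6.68 to 2264 CPM in cKO contralateral and 3.34 to 168 CPM in cKO ipsilateral libraries, and to 12.1 to 524 and 8.55 to 880 CPM in control libraries. Macrophage markers summed to 176 to 534 and 256 to 431 CPM in cKO and to 186 to 429 and 209 to 441 CPM in control libraries. Lymphocyte markers (11) had a median of -0.14, which ran from -0.33 to 0.63 over the settings, and none at an unadjusted p under 0.05 either (1 smaller without H62). Their part in the differences of other genes was not tested.

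**Figure D3:**
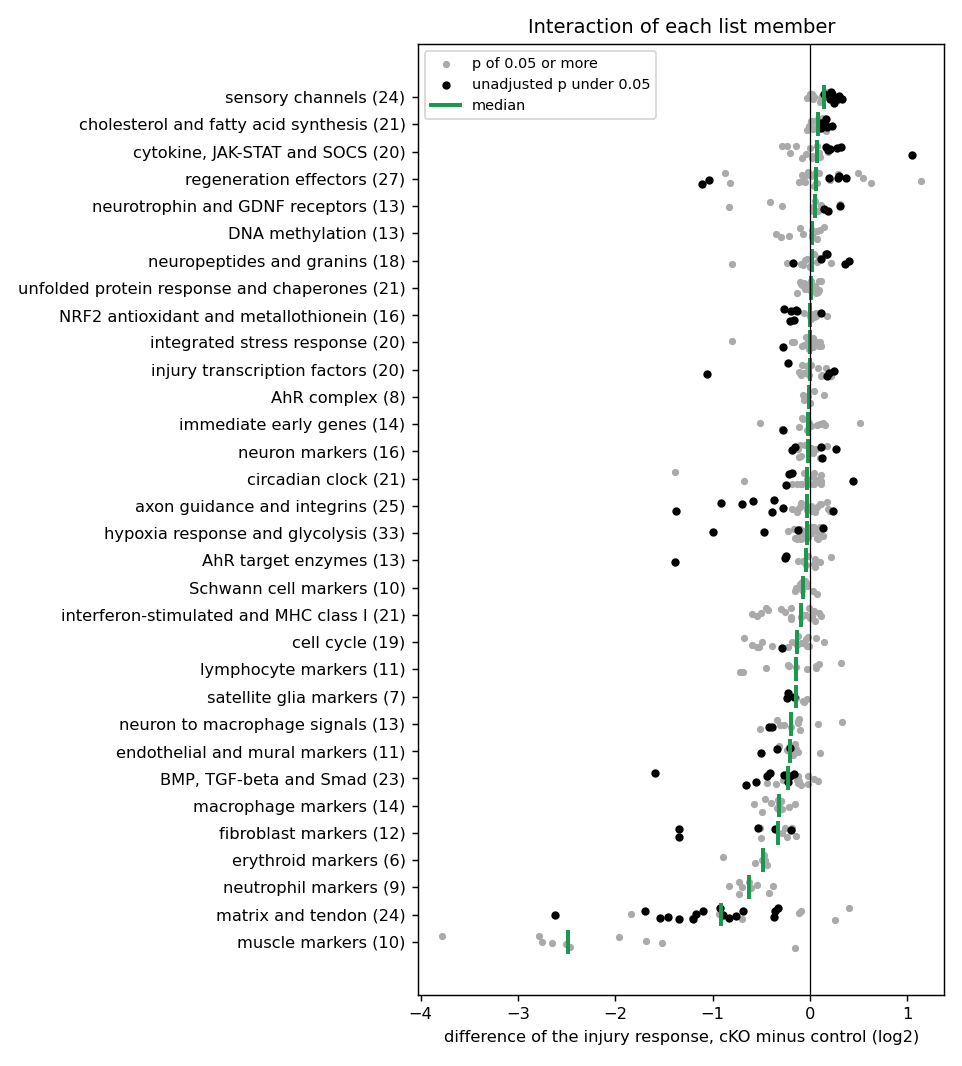
Difference of the injury response, cKO minus control on the log2 scale (x axis), for each tested member of 32 gene lists (y axis, number of members in brackets); black points have an unadjusted p under 0.05 and green bars are list medians. Medians run from -2.48 for muscle markers and -0.91 for matrix and tendon to 0.15 for sensory channels.

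**Figure D4:**
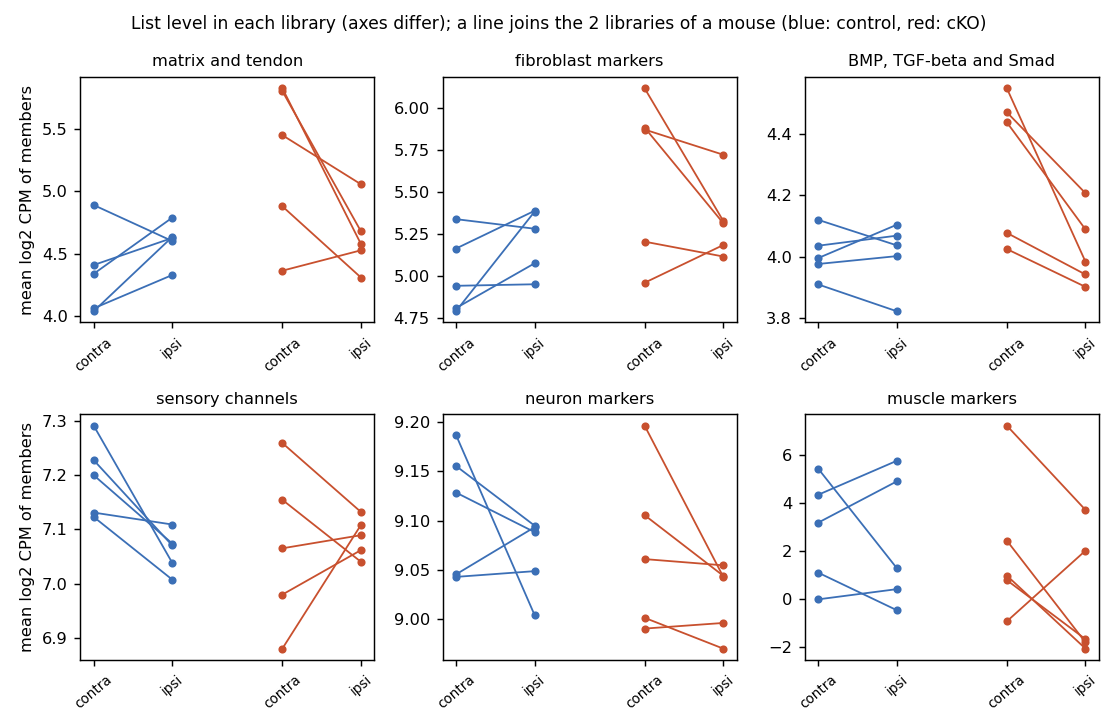
Mean log2 CPM of the members of 6 lists (y axes, which differ in range) in each contralateral (contra) and ipsilateral (ipsi) library; a line joins both libraries of a mouse, blue for control and red for cKO. In the matrix and tendon panel the cKO contralateral libraries of H64, H95 and H100 lie at 5.45 to 5.82, above all others, and the sensory channel levels of H64 and H95 on that side are the lowest.

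The injury response differed at an edgeR adjusted p under 0.05 in 0 genes of the AhR pathway, and in 0 of all 28564 tested genes. Of the 8 genes of the AhR complex 4 rose and 2 fell in each genotype, the same genes in both. Over all genes 14.1% rose and 15.9% fell in control mice, and 16.4% and 15.2% in cKO mice. The median difference of the complex was -0.011 with 0 members at an unadjusted p under 0.05 (background 5.99% greater and 5.42% smaller). Arnt, the partner of AhR, rose by 0.25 and 0.18 (difference -0.06, SE 0.06, adjusted p 0.681). Ahrr, the AhR repressor, fell by 0.20 and 0.27 (difference -0.07, SE 0.10, adjusted p 0.824).

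Of 15 AhR target enzymes 13 were tested. In control mice 5 rose and 0 fell (14.1% and 15.9% over all genes). In cKO mice 6 rose and 3 fell (16.4% and 15.2%). The median difference was -0.04, with 3 smaller and 0 greater in cKO at an unadjusted p under 0.05 (background 5.42% and 5.99%). The count of 3 was 1 without H64 or H95 and with limma-voom, and 0 with the fibroblast covariate. Cyp1b1, a cytochrome P450 induced through AhR, rose on average to 87.6 CPM from 50.9 in control mice, and to 91.6 CPM from 63.7 in cKO mice, by 0.78 and 0.54 on the log2 scale (difference -0.24, SE 0.09, adjusted p 0.363). Tiparp, a mono-ADP-ribosyltransferase that limits AhR, rose by 0.16 and 0.21 (difference 0.05, adjusted p 0.718). Nqo1, a quinone reductase, had -0.10 in control mice and fell by 0.17 in cKO mice (difference -0.07, adjusted p 0.722). Cyp2s1 differed by -0.25 and Aldh3a1 by -1.38 (SE 0.61), the latter at 0.618 to 1.81 CPM (adjusted p 0.404 and 0.432). With that covariate Cyp1b1 differed by -0.12 and Aldh3a1 by -0.34.

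The stress, chaperone, DNA methylation and immediate early lists had medians near 0. The integrated stress response (20 genes) had 14 members that rose in both genotypes (over all genes 14.1% rose in control and 16.4% in cKO). Its median difference was 0.0034. At an unadjusted p under 0.05, 1 member was smaller (background 5.42%), Sesn2 (-0.28, edgeR adjusted p 0.389). Unfolded protein response and chaperone genes (21) had a median of 0.01 and DNA methylation genes (13) of 0.03, each with 0 members at an unadjusted p under 0.05. Immediate early genes (14 tested) had a median of -0.02, with 1 smaller at that p (background 5.42%), Btg2 (-0.28, edgeR adjusted p 0.432). Without H96 or H99, 3 were smaller.

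Circadian clock genes (21 tested) had a median of -0.03, with 1 greater and 3 smaller at an unadjusted p under 0.05 (background 5.99% and 5.42%). With 1 mouse left out these counts ran from 1 to 4 (H99) and from 1 (H95 or H97) to 5 (H61). The repressor Nr1d2 fell by 0.14 in control and by 0.32 in cKO mice (difference -0.19, adjusted p 0.353), and Npas2, a partner of the clock activator, differed by 0.45. The output genes Dbp and Per3 differed by -0.25 and -0.21; with the fibroblast covariate Npas2 and Dbp differed by 0.28 and -0.04. Hypoxia and glycolysis genes (33 tested) had a median of -0.03, with 1 greater and 3 smaller (background 5.99% and 5.42%). The count of 3 smaller was 1 without H96, and the count of 1 greater was 3 without H99. Both were 0 with that covariate. Adm, the vasoactive peptide adrenomedullin, rose by 0.65 in control mice and had -0.34 in cKO mice (difference -0.99, SE 0.31, adjusted p 0.353), and Egln3, an oxygen sensor, differed by -0.47; with that covariate Adm differed by -0.45 and Egln3 by -0.16.

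NRF2 antioxidant and metallothionein genes (16) had a median of 0.01, with 6 smaller and 1 greater at an unadjusted p under 0.05 (background 5.42% and 5.99%). The count of 6 was 1 without H96 and with the fibroblast covariate, 2 without H64, and 3 without H62 or H100. Mt1, a metallothionein, rose by 0.73 and 0.52 (difference -0.21, adjusted p 0.376), Prdx1 differed by -0.14, and the ferritin chains Fth1 and Ftl1 by -0.19 and -0.13. With that covariate Mt1, Prdx1, Fth1 and Ftl1 differed by -0.10, -0.07, -0.12 and -0.05. Axon guidance and integrin genes (25) had a median of -0.03, with 7 smaller and 1 greater (background 5.42% and 5.99%). The count of 7 was 4 without the mouse block and with limma-voom, and 1 with the fibroblast covariate. Dcc, the netrin receptor, had -0.01 in control mice and fell by 0.93 in cKO mice (difference -0.92, SE 0.22, edgeR p 0.00125, adjusted 0.353), and Itga5, the fibronectin receptor subunit, rose by 0.58 in control mice and had -0.01 in cKO mice (difference -0.58). Sema3c and Epha4 differed by -0.37 and -0.39. With that covariate Dcc, Itga5, Sema3c and Epha4 differed by -0.60, -0.15, -0.13 and -0.22.

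Signals from neurons to macrophages (13 tested) had a median of -0.19. At an unadjusted p under 0.05, 2 were smaller (background 5.42%), Il18 (-0.42) and Cx3cl1 (-0.39). With the fibroblast covariate the median was 0.0070 and these genes differed by -0.11 and -0.14. Without H95 or H97, 0 were smaller at that p. Interferon-stimulated and MHC class I genes (21) had a median of -0.09 and 0 members at an unadjusted p under 0.05. The median was 0.12 with the fibroblast covariate and 0.0096 without H61, and 4 members were smaller at that p without H99 and 3 without H62. Cell cycle genes (19) had a median of -0.14, with 1 smaller at that p, Ccnd1 (background 5.42%). Ccnd1 differed by -0.28, and by -0.0019 with that covariate. Without H62, 5 members were smaller. Over the 532 distinct members of all lists, 44 were greater in cKO at an unadjusted p under 0.05 (8.27%, against 5.99% over all genes). At that p 70 were smaller (13.2%, against 5.42%). The lists were chosen with earlier results of these data known, so these shares are no independent support. Of the members 0 were called by edgeR. With DESeq2, 8 members were called (1.5%, against 0.438% over all genes): Vgf, Trpa1, Dpt, Col12a1, Tgfbr2, Lox, Gfra2 and Dcc, with adjusted p from 0.00223 to 0.0444. Without H99, edgeR called 7 (1.32%, against 0.427%): Dcc, Sema3c, Inhba, Lox, Col12a1, Vgf and Tnmd, with adjusted p from 0.0161 to 0.0416.

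The genes with the lowest interaction p were named by rule, 8 in each direction among well-expressed genes whose per-mouse responses did not overlap. Since the rule asks for this separation, their order is a description. All 16 had an adjusted p of 0.353. They were chosen for a low p in these mice, and every alternative uses the same mice, so keeping their direction and an unadjusted p under 0.05 in the 22 settings is no independent support. All 16 were called with DESeq2 and 14 without H99, and 0 in the other 20. With the fibroblast covariate 5 differences shrank by over 1.5 times: Snx33 to -0.33, Mrvi1 to -0.26, Slc4a11 to 0.22, Gng12 to -0.16 and Tmem86a to -0.27.

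Ankrd6 (diversin, a Wnt and planar polarity adaptor) had the lowest p. Contralateral libraries held 39.0, 36.3, 38.1, 36.5 and 36.4 CPM in control and 34.0, 27.9, 31.1, 34.3 and 33.7 CPM in cKO mice, and ipsilateral libraries 34.8, 34.0, 34.9, 31.2 and 33.8 CPM in control and 35.3, 33.1, 36.4, 37.0 and 36.8 CPM in cKO mice. It was lower after injury in all 5 control mice and higher in all 5 cKO mice. Ankrd6 fell by 0.14 in control and rose by 0.15 in cKO mice (difference 0.30, SE 0.05, 95% interval 0.19 to 0.40, edgeR p 4.7e-05).

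Htr1a, an inhibitory serotonin receptor, held 15.7, 16.1, 15.5, 18.0 and 16.1 CPM in control contralateral and 13.9, 12.9, 11.7, 12.9 and 10.7 CPM in cKO contralateral libraries, which do not overlap. On the ipsilateral side it held 15.4 to 16.4 CPM in control and 15.1 to 16.6 CPM in cKO libraries. It rose by 0.34 in cKO mice and had -0.04 in control mice (difference 0.38, SE 0.07). St6galnac5, a sialyltransferase of brain gangliosides, fell by 0.58 in control and by 0.15 in cKO mice (difference 0.42, SE 0.07). Bmp15, a TGF-beta family factor best known from oocytes, fell by 0.92 and 0.39 (difference 0.53, SE 0.10).

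Celf6, an RNA-binding regulator of splicing, fell by 0.19 in control mice and had 0.04 in cKO mice (difference 0.23). Smyd3, a lysine methyltransferase, rose by 0.13 and 0.34 (difference 0.21). Slc4a11, a membrane transporter, fell by 0.27 in control mice and had 0.09 in cKO mice (difference 0.36, SE 0.07). Vgf, described above, completed this side.

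Omd (osteomodulin, a matrix proteoglycan) held 2.32 to 4.20 CPM in control contralateral libraries and 4.40, 7.91, 9.65, 3.85 and 10.2 CPM in cKO contralateral libraries, and 2.32 to 4.67 and 2.33 to 6.29 CPM on the ipsilateral side. H64, H95 and H100 were the 3 high libraries. Omd fell by 0.81 in cKO mice and had 0.25 in control mice (difference -1.06, SE 0.21). Adamtsl1, a secreted matrix glycoprotein, rose by 0.36 in control and fell by 0.39 in cKO mice (difference -0.75, SE 0.13, edgeR p 7.08e-05). Its responses were 0.41, 0.18, 0.38, 0.35 and 0.45 in control and -0.52, -0.46, -0.60, 0.17 and -0.51 in cKO mice, so that H99 lay next to the lowest control mouse.

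Mrvi1, a substrate of cGMP-dependent kinase in smooth muscle, fell by 0.34 in cKO mice and had 0.11 in control mice (difference -0.46). Snx33, a sorting nexin, rose by 0.35 in control mice and had -0.25 in cKO mice (difference -0.60). Klf12, a zinc finger repressor, and Gng12, a G protein subunit, rose in control mice by 0.37 and 0.17 and had -0.06 and -0.07 in cKO mice (differences -0.43 and -0.25). Tmem86a, an enzyme of plasmalogen breakdown, fell by 0.54 in cKO mice and had -0.12 in control mice (difference -0.42).

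**Figure D5:**
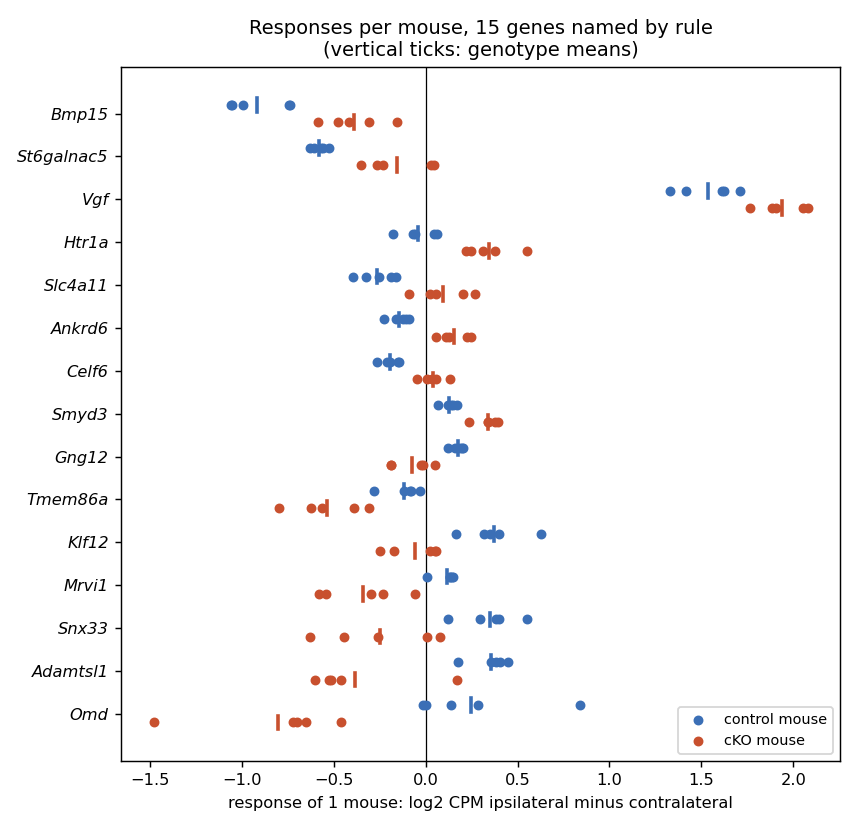
Response of each mouse, log2 CPM ipsilateral minus contralateral (x axis), for 15 of the 16 genes named by rule, 8 in each direction (y axis); points are mice, blue for control and red for cKO, and ticks are genotype means. By the naming rule the genotypes do not overlap in any row, and the gap is narrow for Adamtsl1, where H99 lies at 0.17.

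The interaction equals the ipsilateral minus the contralateral genotype difference, so it could arise on either side. Over all 28564 genes the contralateral difference was the larger in 66.0%. Of the 1712 genes greater in cKO at an unadjusted p under 0.05 it was the larger in 86.9%, with a median of -0.15 on the contralateral and 0.04 on the ipsilateral side. Of the 1548 smaller it was the larger in 87.7%, with medians of 0.30 and -0.04. These medians share their libraries with the interaction and are no independent support for it.

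Promoters were read for the named genes because AhR binds DNA at GCGTG. A window of 300 bases around the start was found in RefSeq (GRCm38.p6) for 10 of the 16, and 5 of these hold GCGTG or its reverse complement CACGC: Ankrd6, Celf6, Tmem86a, Gng12 and Snx33. For comparison, 32.5% of all 27025 promoter windows and 46.2% of the 14346 windows of tested genes hold it. The 3 with the lowest p are shown from 5′ to 3′ on the gene's strand, with the motif of either strand in capitals; they lie at chr4:32950777-32951076 (minus strand, 5 matches in all), chr9:59578087-59578386 (plus strand, 1 match) and chr7:47050390-47050689 (plus strand, 4 matches).
Ankrd6 promoter: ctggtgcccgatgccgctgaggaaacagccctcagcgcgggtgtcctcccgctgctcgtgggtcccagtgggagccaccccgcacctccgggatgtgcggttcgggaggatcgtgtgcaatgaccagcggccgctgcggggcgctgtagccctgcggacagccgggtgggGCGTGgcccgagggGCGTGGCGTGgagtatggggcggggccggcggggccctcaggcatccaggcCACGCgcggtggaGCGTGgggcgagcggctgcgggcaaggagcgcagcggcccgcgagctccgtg
Celf6 promoter: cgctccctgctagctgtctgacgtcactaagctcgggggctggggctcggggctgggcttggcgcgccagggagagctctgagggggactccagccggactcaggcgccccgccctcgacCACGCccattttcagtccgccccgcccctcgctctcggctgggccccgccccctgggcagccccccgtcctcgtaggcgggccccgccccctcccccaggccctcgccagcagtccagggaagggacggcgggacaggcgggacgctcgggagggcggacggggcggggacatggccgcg
Tmem86a promoter: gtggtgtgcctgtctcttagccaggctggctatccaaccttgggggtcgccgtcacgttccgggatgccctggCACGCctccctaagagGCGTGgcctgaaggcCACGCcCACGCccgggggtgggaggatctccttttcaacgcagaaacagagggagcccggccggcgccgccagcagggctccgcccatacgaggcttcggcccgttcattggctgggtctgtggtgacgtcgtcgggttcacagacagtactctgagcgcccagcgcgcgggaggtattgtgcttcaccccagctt
A match is a description of these letters and does not show binding. Ankrd6 and Celf6 had the greater response in cKO and Tmem86a the smaller, so genes holding the motif lay on both sides.

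2 genes that separate the genotypes on both sides were also read. Thy1, whose promoter drives the Cre, held 602 to 679 CPM in control and 1018 to 1176 CPM in cKO contralateral libraries, and its response was 0.08 and -0.06, neither called (difference -0.14, SE 0.05, edgeR p 0.0220, adjusted 0.383). Cadps, a vesicle priming protein, held 576 to 623 CPM in control and 266 to 343 CPM in cKO contralateral libraries, with responses of -0.02 and 0.10 (difference 0.12, 95% interval -0.04 to 0.28). Both genes differed between genotypes on both sides without overlap, and their injury responses overlapped between genotypes.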

How the data were processed

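RNA of lumbar dorsal root ganglia was read as stranded mRNA libraries (paired reads of 150 bases). Per the file headers and values, the table deposited by the authors holds whole-number exonic counts per gene without normalization, 1 column per library; the FPKM table was not used here. HISAT2, Picard and the builds mm10 and mm39 are named in the submitters' processing notes, without roles or versions, and the counting strand is not given in the sources used here, so no coordinates come from the files. Symbols came from the gene name table of the reference for 51487 of 78258 identifiers, which hold 98.1% of counts.

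Of 56837 genes with counts, 28564 passed filterByExpr (minimum count 10, minimum total 15). They were fitted with edgeR 4.0.16 in R 4.3.3 (TMM, robust quasi-likelihood F-test, mouse as a block, injury, and the extra injury effect in cKO), with Benjamini-Hochberg adjustment over all tested genes and calls at 0.05; 95% intervals came from the coefficient and its SE, and 3 genes had none. Per-mouse responses used log2 CPM with a prior count of 2. Single measures were compared by two-sided exact permutation tests. The scripts were tested on simulated data. Alternatives included DESeq2 1.42.0 and limma 3.58.1.

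Both libraries of a mouse come from the same animal by the number in the labels; their deviations from group means correlated at a median of 0.186 over 10 mice (-0.0546 to 0.361). Replicate libraries differed by more than sampling noise (chi-square per degree of freedom 5.31 to 58.3 over 40 pairs). Reads carry no molecular identifiers, so counting limits cover counting error only.

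Named genes were 9 chosen for their role, then, among genes with a symbol other than predicted genes, whose mean reached 5 CPM in any group and whose responses do not overlap, the 8 of each direction with the lowest interaction p; in each of 22 pathway and 10 marker lists, up to 4 members with the lowest p and members taken for their role, these last after their values were seen. Some of these genes enter the counts but are not reported here by name. Members, lists and tests were chosen with earlier results of these data known.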

Additional observations from a re-analysis of the deposited data

Results flagged for a closer look

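In 9 of 124 groups of 5 values, 1 mouse lay far from the other 4, by the gap to its neighbour as a share of the group's range (critical value 0.71); chance flags about 1 in 20 groups, here 6.2. Of the 9, 8 are given here. Among responses of cKO mice this held for Ahr in H64 (share 0.761), Adamtsl1 in H99 (0.816) and Omd in H95 (0.743), and for the mean response of immediate early genes in H95 (0.747), of neutrophil markers in H99 (0.788) and of muscle markers in H99 (0.752). Among control mice it held for Jun in H62 (0.783) and Mrvi1 in H62 (0.895). H99 had the most positive response of the cKO mice in the 3 measures where it stood apart (Adamtsl1 0.17, neutrophil markers 2.24, muscle markers 2.95).

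For Ankrd6 and Mrvi1 every control mouse moved one way and every cKO mouse the other. The interaction term, the test of this difference, was 0.297 for Ankrd6 and -0.458 for Mrvi1 on the log2 scale, with an edgeR adjusted p of 0.353 for both. Both genes were named by the rule for responses that do not overlap, so their directions are a description. For Mrvi1 the control mouse H62 moved by only 0.0087. Its mean control response of 0.11 was not called (edgeR adjusted p 0.240).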

How the results depend on the processing

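The mouse block was the main fit. With no replicate block the interaction again gave 0 called genes (2799 at an unadjusted p under 0.05). Of the 22 alternatives, 3 gave other counts: DESeq2 (125), leaving out H99 (123; 0 to 123 over the mice left out) and the neuron marker level as a covariate (1, Klhl31). The neuron covariate and the thinning to equal totals were chosen after seeing the data. Genes at an unadjusted p under 0.05 ran from 1057 with the fibroblast covariate to 4891 without H99, and were 2077 without H95. The split of 1712 greater and 1548 smaller turned in 9 of the 22: to 1568 and 1606 with RLE size factors, 1237 and 1430 with DESeq2, 1567 and 1579 after thinning, 1722 and 1791 without H62, 1190 and 1465 without H63, 1460 and 1509 without H65, 1013 and 1253 without H97, 898 and 1179 without H95, and 1262 and 1376 without H100. The amplitude difference of 0.0237 was -0.00871 within H95 to H100, and ran from -0.00419 (without H64) to 0.0383 when a mouse was left out; the cause was not tested.

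Differences of 33 named genes changed sign in some setting, none of them called there. With the fibroblast covariate the values were -0.0408 for Cadps, -0.0374 for Sprr1a, -0.0859 for Arnt2, 0.0176 for Ier5, -0.0234 for Ret, -0.0167 for Gfra1, -0.00351 for Cars, 0.0221 for Gadd45b, -0.0461 for Dnmt1, 0.0518 for Cdk1, 0.0513 for Mrc1, 0.269 for C1qb, 0.205 for Mmp8, 0.369 for Cxcr2, 0.374 for Retnlg, 0.424 for Camp, 0.593 for Cd8a, 0.779 for Cd79b, 0.0739 for Hba-a2, 0.199 for Hbb-bs, 0.203 for Hba-a1, 0.267 for Hbb-bt, 0.0376 for Nqo1, -0.0337 for Tiparp, -0.0349 for Hif1a, -0.181 for Tet3, 0.157 for Scx and 0.0606 for Bmp2. Sprr1a was also -0.0994 with DESeq2, -0.105 with limma-trend and -0.0527 with limma-voom. Leaving out 1 mouse at a time gave -0.379 to 0.249 for Sprr1a, -0.236 to 0.0449 for Gal, -0.0518 to 0.000823 for Gap43, -0.0103 to 0.0831 for Arnt2, -0.0524 to 0.744 for Cd3d, -0.0195 to 0.0363 for Hif1a, -0.0195 to 0.0308 for Atf4, -0.0549 to 0.0863 for Tet3, -0.0875 to 0.00879 for Klf6, -0.204 to 0.0335 for Scx and -0.229 to 0.0187 for Bmp2. The cause was not tested. Other members near 0, not named, were not followed through the settings.

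The fibroblast covariate is the mean of the fibroblast markers, so their own difference with it is near 0 by construction. The median difference changed sign in at least 1 setting for 21 of the 32 lists. Beside the 8 lists whose turned medians stand with their results, it ran from -0.094 to 0.0094 for neuron markers, -0.41 to 0.016 for fibroblast markers, -0.081 to 0.0059 for the AhR complex, -0.077 to 0.015 for AhR targets, -0.020 to 0.068 for injury transcription factors, -0.019 to 0.10 for regeneration effectors, -0.083 to 0.063 for immediate early genes, -0.017 to 0.099 for neurotrophin and GDNF receptors, -0.035 to 0.021 for the integrated stress response, -0.029 to 0.021 for chaperones, -0.056 to 0.018 for clock genes, -0.046 to 0.038 for DNA methylation and -0.044 to 0.019 for NRF2 genes. The cause was not tested.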
